A study of Homo sapiens with 6 samples.

Results

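The 39 glycolysis and hypoxia target genes described here were picked by gene symbol from the 58735 genes of the count tables, as the enzymes and transporters of glucose breakdown, the core genes of oxygen sensing and genes commonly used as readouts of the hypoxia response. All 39 symbols were found, each in a single row, and all 39 passed the filter on low counts that left 16340 genes for testing. RNA sequencing had been done on A549, an established human lung adenocarcinoma line grown in RPMI medium with serum. The labels describe stable infection with lentivirus in 3 groups of 2 libraries. The T133A group received PLVX-HOXB9-T133A, a HOXB9 in which an alanine stands for a threonine, and the KO group is labelled HOXB9 KO. The WT group received PLVX-HOXB9, the unchanged HOXB9, a homeobox transcription factor. All 3 groups thus passed through lentivirus, and there is no untreated or empty-vector group. The labels do not say whether the T133A and WT cells kept their own HOXB9, or whether the KO cells are a clone or a pool. Separate cultures behind the paired libraries are not mentioned either; the p-values therefore reflect no more than the spread among the 6 libraries, which may be technical.

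Glycolysis turns glucose into pyruvate in the cytosol, and cells that divert pyruvate to lactate export the lactate with protons. Oxygen controls many of these genes through the hypoxia-inducible factors: in oxygen, the EGLN prolyl hydroxylases mark the HIF alpha subunits for destruction by the VHL complex, and when oxygen is short the alpha subunits pair with ARNT and switch on target genes. Tumour lines such as A549 often express the glycolytic genes strongly even in oxygen.

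Total counts ran from 16299059 to 18745432 per library. HOXB9 was at 274.6 and 210.3 CPM (the usual depth-scaled count, here with TMM library sizes) in the T133A libraries, at 14.5 and 15.4 CPM in the KO libraries, and at 222.5 and 216.9 CPM in the WT libraries, so its level goes with the labels. Epithelial keratins were abundant everywhere (KRT8 at 3988 to 5740 CPM). The alveolar markers NKX2-1 and SFTPC stayed under 1 CPM in all 6 libraries. Of 9 epithelial markers, 1 was called higher and 5 lower in KO against WT, where 23.6% of all genes tested were called higher and 23% lower. EPCAM, an adhesion protein, was at 13 and 12.5 CPM in T133A, 1.94 and 1.72 CPM in KO, and 14.5 and 17 CPM in WT. KRT7, a keratin, went the other way, at 1402 and 1227 CPM in T133A, 1926 and 1638 CPM in KO, and 869.7 and 887.6 CPM in WT. Of 7 fibroblast markers, 3 stayed under 1 CPM in all libraries. The 7 together summed to 40.4 and 42.3 CPM in T133A, 9.71 and 10.7 CPM in KO, and 41.9 and 42.4 CPM in WT. Of the 4 that were tested, 3 were called lower in KO than in WT, COL3A1 and LUM included, beside the same 23% of all genes. COL1A1 was called higher (log2 fold change 0.57, adjusted p = 0.0255). These differences run with the KO group and their part in the results below was not tested. In bulk RNA, fewer cells expressing a gene and less RNA per cell cannot be told apart.

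In the KO libraries, much of the glycolytic chain stood above WT, while the lactate exporter SLC16A3, the oxygen-sensing genes EGLN1 and HIF1A and 5 other hypoxia targets stood below it. The hypoxia targets ADM, BNIP3 and P4HA2 and the oxygen-sensing gene EPAS1 were called above WT in KO. In the T133A libraries a smaller set, spread over all roles, stood above WT and none of the 39 genes was called below it. The 39 genes took 2.11% and 1.95% of all counts in T133A, 2.34% and 2.56% in KO, and 1.88% and 1.9% in WT. The 11 genes of upper glycolysis summed to 2948 and 2422 CPM in T133A, 3966 and 4263 CPM in KO, and 2291 and 2374 CPM in WT. The 12 hypoxia targets outside glycolysis summed to 2631 and 2342 CPM in T133A, 1216 and 1321 CPM in KO, and 2072 and 2056 CPM in WT. CA12 carried that sum: the other 11 targets summed to 912 and 826 CPM in T133A, 708 and 671 CPM in KO, and 717 and 697 CPM in WT, where KO and WT overlapped.

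**Figure D1:**
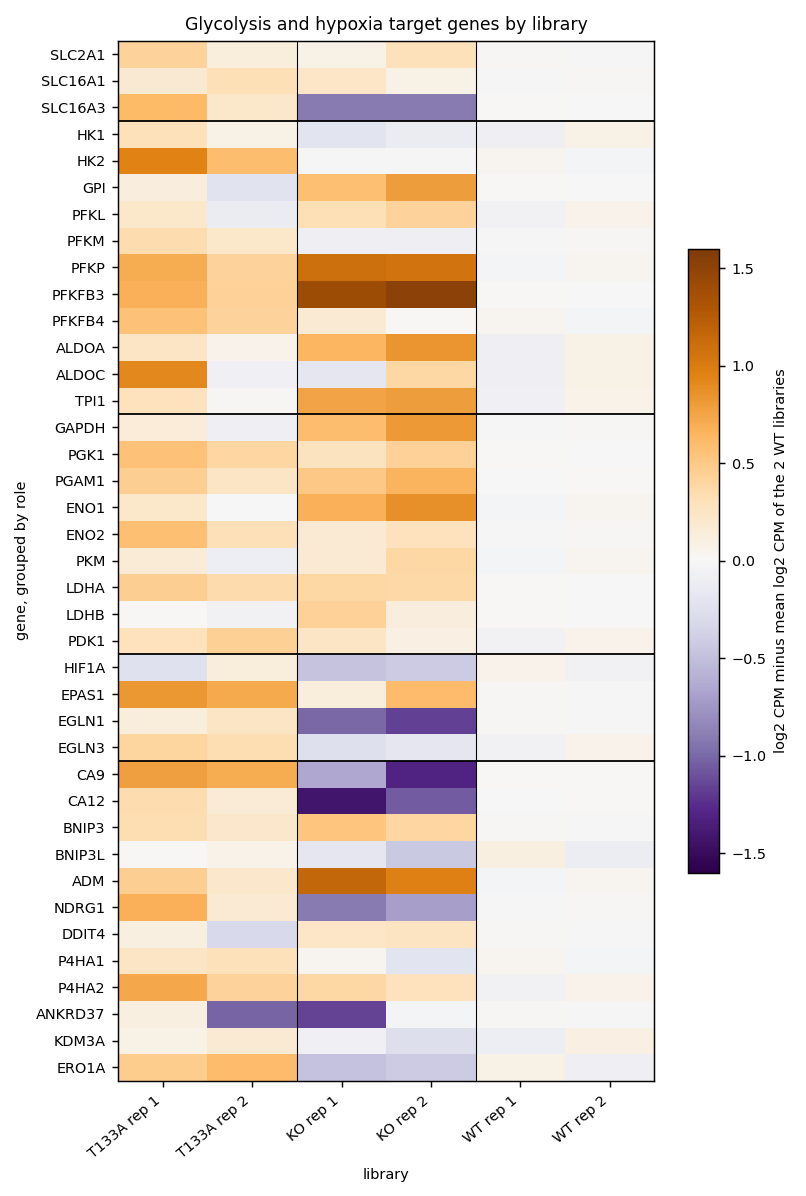
Each row is a gene, grouped by role from uptake at the top to hypoxia targets at the bottom, and each column a library. Colour gives log2 CPM minus the mean log2 CPM of the 2 WT libraries (orange higher, purple lower). The KO columns are orange in most glycolysis rows, up to PFKFB3, and purple for SLC16A3, EGLN1, CA9, CA12, NDRG1 and ERO1A.

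The KO group against WT tested what differs between cells labelled HOXB9 KO and cells given HOXB9. By edgeR's quasi-likelihood test at an adjusted p under 0.05, 15 of the 39 genes were higher and 8 lower in KO, and 16 were not called. Over all genes tested, 46.6% were called, 23.6% higher and 23% lower. The share of members called higher lay above that background, and the share called lower was near it. With a correction for GC content and length the split was 21 members higher and 6 lower, where 35.5% of all genes were called higher and 19.6% lower and the median of all genes moved by 0.15. With that correction centred, it was 17 higher and 9 lower, where 26.9% and 23.9% of all genes were called. The members' median log2 fold change was 0.19, against 0.00 for all genes tested. Both KO libraries lay above both WT libraries for 22 members and below them for 12, where the shares over all genes were 37.8% and 37.5%. Split by role, the calls were 6 higher and 0 lower of 11 in upper glycolysis, and 5 higher and 0 lower of 9 in lower glycolysis. They were 0 higher and 1 lower of 3 for uptake and export, 1 higher and 2 lower of 4 for oxygen sensing, and 3 higher and 5 lower of 12 for the other hypoxia targets. This split is of the fit without GC correction. With either correction HK1 of upper glycolysis was called lower, and PFKL lost its call with the centred one.

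The T133A group against WT compared the altered with the unchanged HOXB9. Here 12 of the 39 genes were higher and 0 lower, where 9.55% of all genes were called, 5.58% higher and 3.97% lower. By edgeR, DESeq2 and limma-voom alike, 0 members were called lower, and 0 were lower at an unadjusted p under 0.05. The median log2 fold change of the members was 0.28, against 0.00 for all genes tested, and it was positive for 34 of 39. Both T133A libraries lay above both WT libraries for 25 members and below them for 0, where the shares over all genes were 27.8% and 25.7%. The count of 12 depended on single libraries. It was 7 without T133A replicate 1, 19 without T133A replicate 2, 4 without WT replicate 1 and 4 without WT replicate 2. T133A replicate 1 lay above T133A replicate 2 in 31 of the 39 members (79.5%), against 55.8% of all genes tested. The difference between these 2 libraries followed the GC content of the genes (Spearman's rho = 0.5 over 16332 genes that share these libraries), and the members' median GC content was 52.6%, against 48.4% for all. For the replicates of KO and of WT rho was -0.29 and -0.18. The log2 fold changes followed GC content as well. Their rho was 0.17 in T133A against WT, 0.26 in KO against WT and -0.19 in T133A against KO. With a correction for GC content and length, 17 members were called higher in T133A than in WT and 0 lower, where 8.85% of all genes were called higher and 6.72% lower.

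The T133A and KO groups were also compared directly. With T133A over KO, 14 members were higher and 10 lower, against 39.9% called over all genes, 20.3% higher and 19.6% lower. With the GC and length correction the split was 13 members higher and 15 lower, where 18% of all genes were called higher and 34.1% lower and the median of all genes moved by -0.15. With it centred, the split was 18 higher and 9 lower, where 22.4% and 24.7% of all genes were called. Both T133A libraries lay above both KO libraries for 19 members and below them for 14, where the shares over all genes were 32.9% and 34%. The calls divided by role: 4 higher and 0 lower of 4 for oxygen sensing, 6 higher and 2 lower of 12 for the hypoxia targets outside glycolysis, 3 higher and 6 lower of 11 in upper glycolysis, and 0 higher and 2 lower of 9 in lower glycolysis. Each pair of comparisons shares a group of libraries, so their values are given side by side and are not independent.

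**Figure D2:**
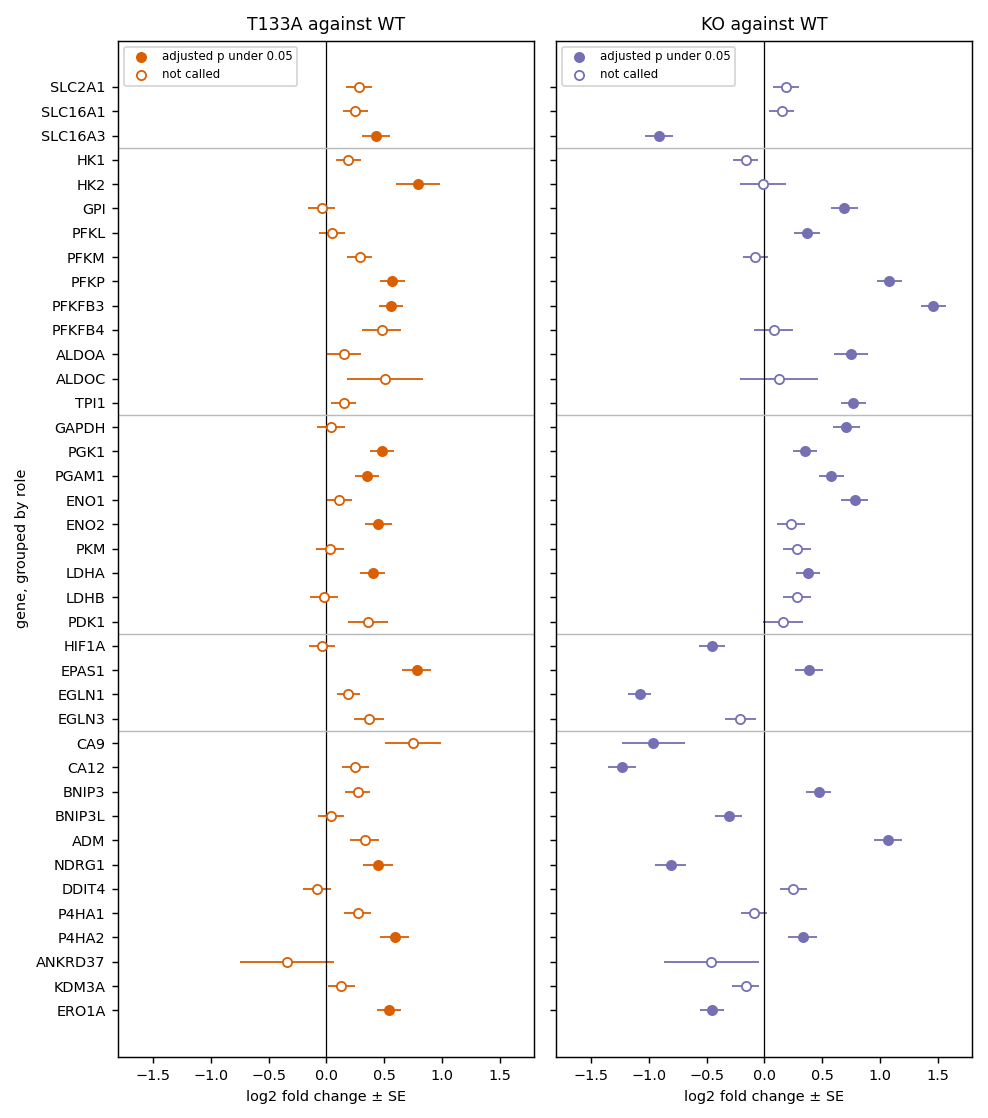
Log2 fold change with its standard error for each gene, T133A against WT on the left and KO against WT on the right, from a fit of all 6 libraries. Filled points have an adjusted p under 0.05. On the left 12 filled points lie right of 0, and on the right 15 lie right of 0 and 8 left of it.

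RefSeq promoter windows (GRCh38.p14) were found for 36 of the 39 genes; BNIP3L, NDRG1 and SLC16A1 had none in the table used. The 250 bases before the most upstream start site were searched on both strands for ACGTG and GCGTG, the core letters that HIF binds. Matches on the 2 strands may overlap, as in CACGTG. At least 1 match stood in 24 of the 36 members (66.7%), against 43.1% of 27305 promoters. It stood in 11 of the 15 members higher in KO, 5 of the 6 lower in KO with a window, and 8 of the 15 not called, so matches were found whichever way a gene moved. With all 300 bases of the table's windows the shares were 77.8% of members and 48.4% of all promoters. Both motifs hold the letters CG, and the promoters compared were not matched for GC content (35.2% to 81.6% in the members' windows). Many members were also picked as known hypoxia genes. What either gives to the difference in shares was not tested. The sequences shown are of the 6 called members with a match that had the smallest adjusted p over the 3 comparisons. Of these, 3 were higher and 3 lower in KO than in WT. Capitals mark the motif or its reverse complement, which is CACGT for ACGTG and CACGC for GCGTG. The PFKFB3 window holds no base annotated as UTR in GENCODE 29 and is given whole, at chr10:6144671-6144920 on the plus strand:
PFKFB3: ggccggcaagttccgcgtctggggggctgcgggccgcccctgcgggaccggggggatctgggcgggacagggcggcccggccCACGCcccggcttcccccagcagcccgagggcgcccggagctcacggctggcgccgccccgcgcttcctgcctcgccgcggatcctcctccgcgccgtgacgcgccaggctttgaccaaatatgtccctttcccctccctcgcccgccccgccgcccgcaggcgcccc
The other 5 windows lie wholly in bases that GENCODE 29 annotates as UTR, inside the gene's own span and downstream of its annotated start there, and each match is given with up to 12 bases on each side. The ADM match was on chromosome 11 (10304960 to 10304988, plus strand) and the ENO1 matches on chromosome 1 (8878836 to 8878864 and 8878742 to 8878770, minus strand), both genes higher in KO:
ADM: gagcaggagcgcGCGTGgctgaggaaaga
ENO1, far: cacccccctttcCACGCtactgcagccgt
ENO1, near: ggagctgaggggGCGTGccccggaggcgg
The EGLN1 match was on chromosome 1 (231422288 to 231422312, minus strand), the CA12 match on chromosome 15 (63382064 to 63382092, minus strand) and the ERO1A matches on chromosome 14 (52695712 to 52695740 and 52695656 to 52695684, minus strand), all 3 genes lower in KO:
EGLN1: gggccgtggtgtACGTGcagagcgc
CA12: gcggatctcaccCACGCctgccagcagct
ERO1A, far: gtgcgtcagcctCACGCggcgggaaggaa
ERO1A, near: cgggcgccgcggCACGTccacaggctggg
GCGTG or its complement was the match in PFKFB3, ADM, ENO1 and CA12, ACGTG in EGLN1, and ERO1A held both. A match describes letters only.

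RNA of the lactate exporter SLC16A3 fell in KO. That of the carrier SLC16A1 and of the glucose transporter SLC2A1 was not called in the main fit of all 6 libraries. SLC16A3, the MCT4 transporter that carries lactate and protons out of glycolytic cells (chromosome 17, 82228397 to 82261129), was at 134.2 and 101.8 CPM in T133A, 46.7 and 46.7 CPM in KO, and 88.2 and 87.2 CPM in WT. The 3 groups did not overlap, with T133A highest and KO lowest. Its log2 fold change was -0.91 ± 0.122 (SE) in KO against WT (adjusted p = 2.4e-06) and 1.34 ± 0.122 in T133A against KO (adjusted p = 7.55e-09). In T133A against WT it was 0.43 ± 0.118 (adjusted p = 0.0221), a call that did not hold without T133A replicate 1 (log2 fold change 0.23, adjusted p = 0.273), WT replicate 1 (adjusted p = 0.158) or WT replicate 2 (adjusted p = 0.191).

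SLC16A1, the MCT1 transporter of the same family, was at 77.7 and 85.7 CPM in T133A, 80.6 and 72.5 CPM in KO, and 67.8 and 69.8 CPM in WT. It was called in no comparison of the main fit. Corrected for GC content and length, it was called higher in KO than in WT (0.37, adjusted p = 0.000224, and centred 0.25, adjusted p = 0.00931). In T133A against WT it was called too (0.25, adjusted p = 0.0292, and centred 0.25, adjusted p = 0.0327). Per length, the balance of the 2 lactate carriers differed between groups: SLC16A3 made up 50.5% and 41.2% of their summed FPKM in T133A, 25.5% and 27.5% in KO, and 43.4% and 42.5% in WT. The KO libraries had the lowest share and did not overlap the others. SLC2A1, the GLUT1 glucose transporter, was at 197.1 and 160.2 CPM in T133A, 155.3 and 179.5 CPM in KO, and 149.3 and 144.4 CPM in WT. It was called in no comparison of the main fit, although both T133A and both KO libraries lay above WT. Its adjusted p in T133A against WT was 0.124, and 0.00244 without T133A replicate 2. In KO against WT it was 0.175, and 0.0413 without KO replicate 1.

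Upper glycolysis held the highest rise of the set in KO. PFKFB3 makes the sugar bisphosphate that activates phosphofructokinase and so sets the pace of the pathway (chromosome 10, 6144934 to 6254644). It was at 431.6 and 362 CPM in T133A, 712.3 and 768.3 CPM in KO, and 269.1 and 268.2 CPM in WT. No groups overlapped, and T133A lay between KO and WT. The log2 fold change was 1.46 ± 0.108 in KO against WT, a 2.76-fold rise (adjusted p = 1.98e-10), and 0.56 ± 0.106 in T133A against WT (adjusted p = 0.001). T133A against KO gave -0.90 ± 0.106 (adjusted p = 4.82e-07). PFKFB4, its relative, was at 13.5 and 12.2 CPM in T133A, 10.3 and 9.2 CPM in KO, and 9.35 and 8.98 CPM in WT, and was called in no comparison of the main fit. T133A against WT had an adjusted p of 0.0742, and 0.0475 without T133A replicate 2. Corrected for GC content and length, PFKFB4 was called higher in T133A than in KO (0.42, adjusted p = 0.0238, and centred 0.54, adjusted p = 0.00571). PFKFB3 held at least 96.6% of the pair's summed FPKM in every library.

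Phosphofructokinase carries out the committed step of glycolysis, and its 3 subunit genes moved unequally. PFKP, the platelet type, was at 466.8 and 384.4 CPM in T133A, 613.4 and 596.5 CPM in KO, and 281 and 293.1 CPM in WT, again with no overlap and with T133A in between. Its change on the log2 scale was 1.08 ± 0.108 in KO against WT (adjusted p = 2.96e-08), 0.57 ± 0.107 in T133A against WT (adjusted p = 0.000952) and -0.51 ± 0.106 in T133A against KO (adjusted p = 0.000567). Among the 12 other tested genes within 2 Mb of PFKP the median log2 fold change in KO against WT was -1.08, so PFKP rose where its neighbours lay lower. The same median was -0.07 over the 34 neighbours of PFKFB3. PFKL and BNIP3, also called higher in KO, lay near their neighbours. The median was 0.36 over 54 neighbours of PFKL, itself at 0.37, and 0.42 over 26 neighbours of BNIP3, itself at 0.47. Most other members called higher in KO lay further above their neighbours. GAPDH, for example, was at 0.71, with a median of -0.04 over 61 neighbours, and TPI1 at 0.77, with -0.17 over 59.

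PFKL, the liver type, was at 116.7 and 92.3 CPM in T133A, 125.9 and 134.3 CPM in KO, and 97.1 and 104.1 CPM in WT. KO lay above both other groups, which overlapped each other. On the log2 scale the change was 0.37 ± 0.114 in KO against WT (adjusted p = 0.0105) and -0.32 ± 0.114 in T133A against KO (adjusted p = 0.0304). Both calls held with the uncentred GC and length correction (0.28 and -0.22, adjusted p = 0.00247 and 0.0139). Both were lost with it centred (0.16 and -0.10, adjusted p = 0.0795 and 0.269). The KO call against WT was lost without KO replicate 2 (adjusted p = 0.0711) or WT replicate 1 (adjusted p = 0.124). The T133A call against KO was lost without T133A replicate 2 (adjusted p = 0.266) or KO replicate 2 (adjusted p = 0.132).

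PFKM, the muscle type, was at 74.1 and 67.9 CPM in T133A, 55.2 and 55.2 CPM in KO, and 57.2 and 59.2 CPM in WT. It was higher in T133A than in KO by 0.36 ± 0.109 (adjusted p = 0.0106). Its adjusted p in T133A against WT was 0.105, and 0.0313 without T133A replicate 2. PFKP's share of the family's summed FPKM was 80.6% and 80.2% in T133A, 85.4% and 84.5% in KO, and 75.7% and 75.4% in WT, 3 separate levels with KO at the top.

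Hexokinases trap glucose in the cell as its phosphate. HK2, the inducible form, was at 12.4 and 9.58 CPM in T133A, 6.31 and 6.3 CPM in KO, and 6.49 and 6.25 CPM in WT. Only the T133A libraries stood apart. Its log2 fold change was 0.79 ± 0.19 in T133A against WT (adjusted p = 0.00881), 0.80 ± 0.19 in T133A against KO (adjusted p = 0.00178) and -0.01 ± 0.199 in KO against WT (adjusted p = 0.961). The call against WT was lost without T133A replicate 1 (adjusted p = 0.104), WT replicate 1 (adjusted p = 0.0602) or WT replicate 2 (adjusted p = 0.0955).

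HK1, the form found in most tissues, was at 135.2 and 116.8 CPM in T133A, 95.9 and 102 CPM in KO, and 104.7 and 116.7 CPM in WT. T133A lay above KO by 0.35 ± 0.109 on the log2 scale (adjusted p = 0.0134). That call did not hold without T133A replicate 1 (adjusted p = 0.0664) or KO replicate 1 (adjusted p = 0.0904). In KO against WT, HK1 was at -0.16 and not called (adjusted p = 0.233). It was called lower there with the GC and length correction (-0.20, adjusted p = 0.0279, and centred -0.32, adjusted p = 0.00116). HK1 held 91.3% to 94.7% of the pair's summed FPKM over the 6 libraries, so HK2 was the minor form everywhere.

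GPI, TPI1 and ALDOA of upper glycolysis were higher in KO than in both other groups. GPI converts glucose phosphate to fructose phosphate. It was at 945.6 and 751.3 CPM in T133A, 1307 and 1517 CPM in KO, and 874.1 and 871.2 CPM in WT. Both KO libraries lay above all others, and T133A and WT overlapped. In log2 terms the change was 0.69 ± 0.117 in KO against WT (adjusted p = 4.54e-05) and -0.73 ± 0.117 in T133A against KO (adjusted p = 2.83e-05).

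TPI1, which interconverts the triose phosphates, was at 731.7 and 609.4 CPM in T133A, 1017 and 1046 CPM in KO, and 576.5 and 629 CPM in WT. Here too KO lay above all others. The change on the log2 scale was 0.77 ± 0.109 in KO against WT (adjusted p = 4.83e-06) and -0.62 ± 0.109 in T133A against KO (adjusted p = 8.59e-05). In T133A against WT its adjusted p was 0.432, and 0.0451 without T133A replicate 2.

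The aldolases split the sugar bisphosphate. ALDOA was at 16.6 and 14.6 CPM in T133A, 21.9 and 25.2 CPM in KO, and 13.2 and 14.9 CPM in WT, with a log2 fold change of 0.75 ± 0.149 in KO against WT (adjusted p = 0.000275) and -0.59 ± 0.148 in T133A against KO (adjusted p = 0.0026). These ALDOA counts are uncertain: 42.3% of its exon bases are also exon of AC093512.2, a protein-coding gene on the same strand, and reads that fit both can be dropped or split. ALDOC was at 0.673 to 1.44 FPKM over the 6 libraries and was called in no comparison.

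**Figure D3:**
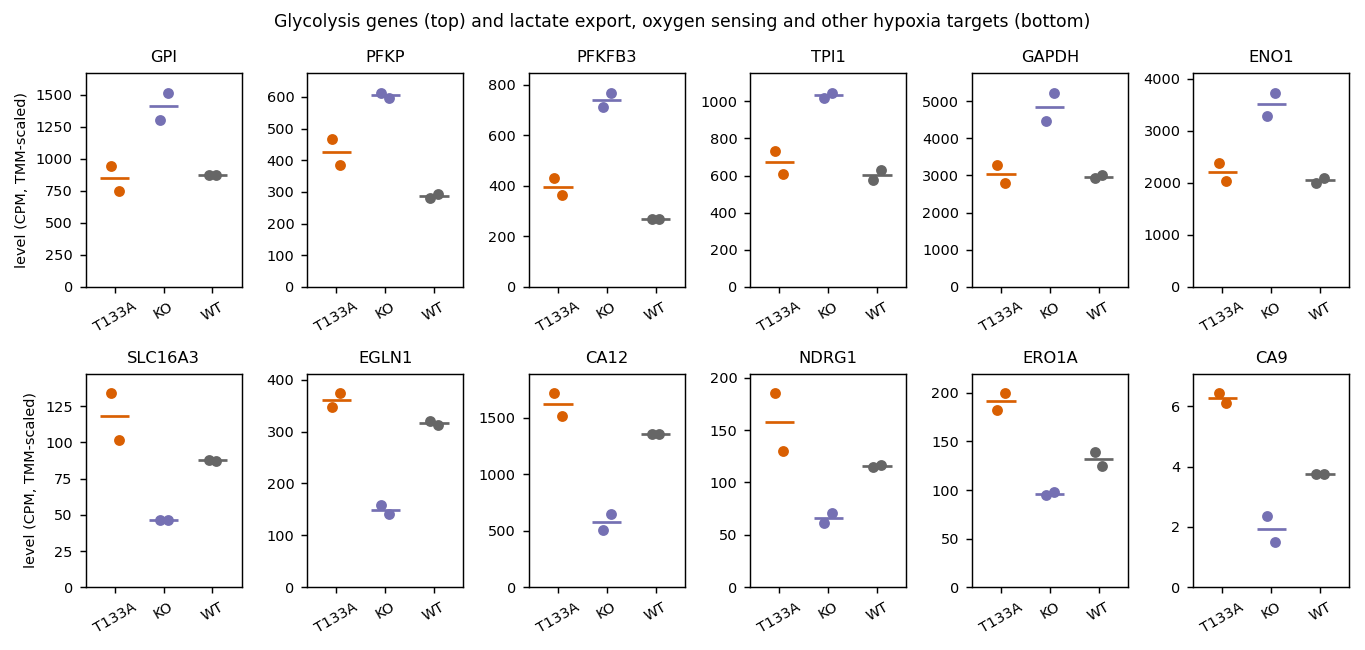
CPM in each library for 6 glycolysis genes (top) and 6 genes of lactate export, oxygen sensing and hypoxia response (bottom). Points are libraries, short lines the mean of 2, and each axis starts at 0. The KO points are the highest in every top panel and the lowest in every bottom panel.

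In lower glycolysis, GAPDH and ENO1 were called higher in KO and not in T133A, PGK1, PGAM1 and LDHA were called higher in both, and ENO2 was called higher in T133A and not in KO, each against the same WT libraries. GAPDH, which oxidises the triose phosphate and is widely used as a reference gene, was at 3284 and 2803 CPM in T133A, 4462 and 5228 CPM in KO, and 2921 and 3017 CPM in WT. KO lay above all other libraries, and T133A and WT overlapped. The log2 fold change was 0.71 ± 0.118 in KO against WT (adjusted p = 4.15e-05), -0.67 ± 0.118 in T133A against KO (adjusted p = 9.26e-05) and 0.04 ± 0.118 in T133A against WT (adjusted p = 0.9).

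ENO1 makes phosphoenolpyruvate. It was at 2392 and 2039 CPM in T133A, 3291 and 3737 CPM in KO, and 2008 and 2091 CPM in WT, the same arrangement as GAPDH. Its change on the log2 scale was 0.78 ± 0.115 in KO against WT (adjusted p = 9.03e-06) and -0.67 ± 0.115 in T133A against KO (adjusted p = 7.18e-05). ENO2, the enolase first known from neurons, was at 67.4 and 55.8 CPM in T133A, 50.9 and 54.6 CPM in KO, and 44.6 and 45.6 CPM in WT. Its call in T133A against WT (log2 fold change 0.45 ± 0.119, adjusted p = 0.0165) was lost without T133A replicate 1 (adjusted p = 0.127), WT replicate 1 (adjusted p = 0.2) or WT replicate 2 (adjusted p = 0.151). It gained a call in KO against WT (adjusted p = 0.124) without T133A replicate 2 (adjusted p = 0.0496), and likewise in T133A against KO (adjusted p = 0.14, and 0.0205 without that library). ENO1 held 96.6% to 98.2% of the pair's summed FPKM.

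PGK1, which makes ATP from the bisphosphate, was at 1099 and 987.8 CPM in T133A, 903.3 and 1011 CPM in KO, and 751.1 and 746.9 CPM in WT. T133A and KO overlapped and both lay above WT. On the log2 scale the change was 0.48 ± 0.106 in T133A against WT (adjusted p = 0.00419) and 0.35 ± 0.106 in KO against WT (adjusted p = 0.00863). Without WT replicate 1 these adjusted p were 0.0834 and 0.0825, and without WT replicate 2 they were 0.0955 and 0.0948. LDHA, which turns pyruvate into lactate, was at 2305 and 2147 CPM in T133A, 2197 and 2173 CPM in KO, and 1694 and 1672 CPM in WT, with a log2 fold change of 0.40 ± 0.105 in T133A (adjusted p = 0.0152) and 0.38 ± 0.105 in KO (adjusted p = 0.00548), both against WT. Without WT replicate 1 these adjusted p were 0.203 and 0.0676, and without WT replicate 2 they were 0.242 and 0.0881. For both genes the WT libraries were the low ones.

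PGAM1, the phosphoglycerate mutase, was at 707.2 and 612.8 CPM in T133A, 736.6 and 813.9 CPM in KO, and 516.7 and 517.9 CPM in WT. All 3 groups were apart, WT lowest. Its log2 fold change was 0.58 ± 0.106 in KO against WT (adjusted p = 0.000102) and 0.35 ± 0.106 in T133A against WT (adjusted p = 0.0359). Its T133A call did not hold without T133A replicate 1 (adjusted p = 0.156), WT replicate 1 (adjusted p = 0.314) or WT replicate 2 (adjusted p = 0.303). T133A against KO was not called (adjusted p = 0.0851), but was without T133A replicate 1 (adjusted p = 0.019) or KO replicate 1 (adjusted p = 0.0139).

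The remaining 3 genes of lower glycolysis were called in no comparison of the main fit. Corrected for GC content and length, all 3 were called higher in KO than in WT, PKM only when uncentred (0.28, adjusted p = 0.00535, and centred 0.16, adjusted p = 0.119). PKM, the pyruvate kinase gene, was at 5081 and 4271 CPM in T133A, 5148 and 5944 CPM in KO, and 4488 and 4653 CPM in WT. Its adjusted p in KO against WT was 0.0607, and 0.0183 without T133A replicate 1, 0.00698 without T133A replicate 2 and 0.00242 without KO replicate 1. In T133A against KO it was 0.109, and 0.0171 without T133A replicate 1 and 0.00453 without KO replicate 1. PDK1, which holds back pyruvate dehydrogenase, was at 0.594 to 0.84 FPKM over the 6 libraries. Under that correction it was at 0.62 in KO against WT (adjusted p = 0.00134, and centred 0.50, adjusted p = 0.00929). In T133A against WT it was at 0.47 and also called higher (adjusted p = 0.0335, and centred 0.0364).

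LDHB, the other lactate dehydrogenase subunit, was at 43.6 and 41.8 CPM in T133A, 58.6 and 47 CPM in KO, and 43.5 and 43.2 CPM in WT. Both KO libraries were above the rest. Corrected for GC content and length, LDHB was at 0.43 in KO against WT (adjusted p = 0.000393, and centred 0.31, adjusted p = 0.0106). In T133A against KO it was then at -0.49 (adjusted p = 0.000118, and centred -0.37, adjusted p = 0.00367). The values below are without that correction. Its adjusted p in KO against WT was 0.0633, and 0.0336 without T133A replicate 1, 0.0219 without T133A replicate 2 and 0.017 without KO replicate 2. In T133A against KO it was 0.0533, and 0.0133 without KO replicate 2. The LDHB counts are uncertain, since 33.4% of its exon bases are also exon of AC010197.2 on the same strand. Glycolysis genes such as GAPDH, PGK1, PGAM1, ENO1, TPI1, LDHA, LDHB and ALDOA also have processed pseudogenes, and how reads that fit a gene and its copies were counted is not given in the sources used here.

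Per length, in FPKM as the authors deposited it, GAPDH was the most abundant of the 39 genes in every library, at 1080 and 943 FPKM in T133A, 1473 and 1775 FPKM in KO, and 975.2 and 1002 FPKM in WT. PKM came next in T133A and WT, at 581.2 and 499.7 FPKM in T133A and 521.2 and 537.4 FPKM in WT. In KO the order of PKM and ENO1 was turned, with ENO1 at 613.7 and 716.9 FPKM and PKM at 590.9 and 702 FPKM, values that overlap between the 2 libraries. The lowest were PDK1, ALDOC and ANKRD37, each under 1.5 FPKM in all 6 libraries.

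In oxygen sensing, the EGLN1 hydroxylase fell in KO and the 2 HIF alpha genes went opposite ways there. EGLN1, the main HIF hydroxylase in oxygen (chromosome 1, 231363751 to 231425044), was at 346.5 and 374.4 CPM in T133A, 157.9 and 140.7 CPM in KO, and 319.8 and 312.5 CPM in WT. The KO libraries were the low ones. In log2 terms the change was -1.08 ± 0.103 in KO against WT (adjusted p = 1.25e-08) and 1.27 ± 0.103 in T133A against KO (adjusted p = 1.02e-09). T133A against WT gave 0.19 ± 0.101 (adjusted p = 0.272). EGLN3, a hydroxylase gene that is itself a hypoxia target, was at 31.1 and 29.6 CPM in T133A, 19.8 and 20.7 CPM in KO, and 22.6 and 24.4 CPM in WT. It was higher in T133A than in KO by 0.58 ± 0.132 (adjusted p = 0.0012), and neither comparison with WT was called in the main fit. Corrected for GC content and length, EGLN3 was called higher in T133A than in WT (0.32, adjusted p = 0.0397, and centred 0.32, adjusted p = 0.0431). In KO against WT it was called lower only with the correction centred (-0.27, adjusted p = 0.046, and uncentred -0.14, adjusted p = 0.273).

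HIF1A was at 476.7 and 613 CPM in T133A, 402.3 and 416.5 CPM in KO, and 578.9 and 539.3 CPM in WT. The KO libraries were lowest, and the T133A libraries straddled WT. The change on the log2 scale was -0.45 ± 0.113 in KO against WT (adjusted p = 0.00246) and 0.41 ± 0.113 in T133A against KO (adjusted p = 0.00571). The T133A call against KO was lost without T133A replicate 2 (log2 fold change 0.22, adjusted p = 0.088). With the GC and length correction, HIF1A in KO against WT was at -0.07 (adjusted p = 0.495), a value that holds the 0.15 shift of all genes. With the correction centred it was at -0.19 and stayed called narrowly (adjusted p = 0.0472). That call was lost when replicate number was also in the model (adjusted p = 0.0664). In T133A against KO, HIF1A was at 0.15 with the correction and not called (adjusted p = 0.125), with the -0.15 shift of all genes in that value. Centred, it was at 0.27 there and called (adjusted p = 0.00685).

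EPAS1, which encodes the other main HIF alpha subunit, was at 427.7 and 395.2 CPM in T133A, 263.8 and 365.8 CPM in KO, and 243.3 and 236.7 CPM in WT. No groups overlapped, and T133A was highest. The log2 fold change was 0.78 ± 0.122 in T133A against WT (adjusted p = 0.000118), 0.39 ± 0.121 in KO against WT (adjusted p = 0.0111) and 0.39 ± 0.121 in T133A against KO (adjusted p = 0.0139). The KO call against WT was lost without KO replicate 2 (log2 fold change 0.12, adjusted p = 0.374) or WT replicate 2 (adjusted p = 0.0642). The T133A call against KO was lost without T133A replicate 1 (adjusted p = 0.0984) or KO replicate 1 (log2 fold change 0.14, adjusted p = 0.301). Of the summed FPKM of HIF1A and EPAS1, EPAS1 made up 38.8% and 31.3% in T133A, 31.6% and 38.3% in KO, and 22.9% and 23.6% in WT, so WT had the lowest share.

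**Figure D4:**
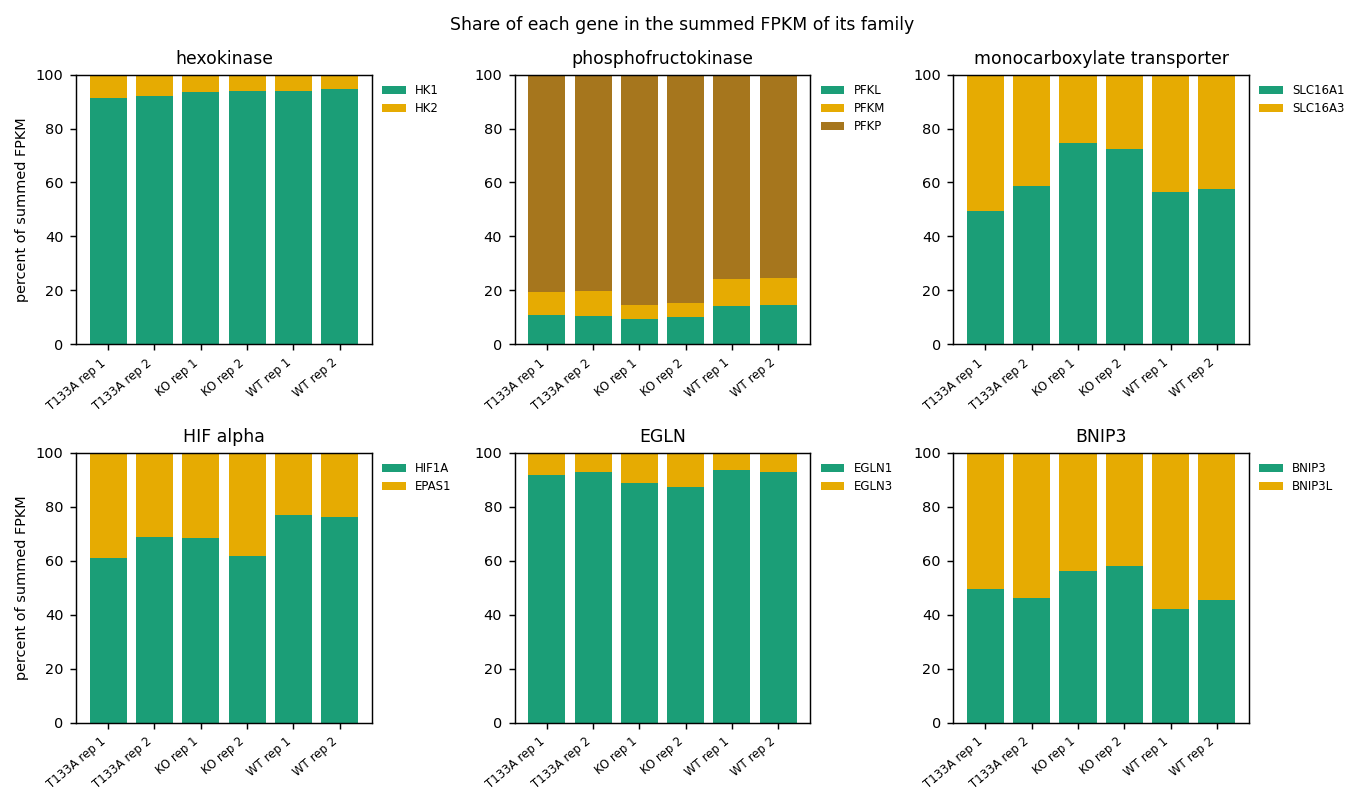
Bars give, for each library, the percent of the summed FPKM of a family contributed by each of its genes, in 6 families. The PFKP share is highest in KO (85.4% and 84.5%), the SLC16A3 share is lowest in KO (25.5% and 27.5%), and the EPAS1 share is lowest in WT (22.9% and 23.6%).

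Among the 12 hypoxia targets outside glycolysis, 5 were called lower and 3 higher in KO than in WT in the main fit. Over all genes tested, 23% were called lower and 23.6% higher there. CA12, a membrane carbonic anhydrase that handles acid at the cell surface (chromosome 15, 63321378 to 63382161), was at 1719 and 1517 CPM in T133A, 507.9 and 650.3 CPM in KO, and 1355 and 1359 CPM in WT. The KO libraries were far below the rest. On the log2 scale the change was -1.23 ± 0.119 in KO against WT, 2.34-fold lower (adjusted p = 1.9e-08), and 1.48 ± 0.12 in T133A against KO (adjusted p = 1.05e-09). In T133A against WT it was 0.25 ± 0.117 (adjusted p = 0.198), with a call only without T133A replicate 2 (adjusted p = 0.0298) or KO replicate 1 (adjusted p = 0.0499) among the libraries left out.

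CA9, a related anhydrase and a classic HIF target, was low, at 6.44 and 6.11 CPM in T133A, 2.37 and 1.51 CPM in KO, and 3.74 and 3.74 CPM in WT. No groups overlapped, with T133A highest and KO lowest. Its change on the log2 scale was -0.96 ± 0.275 in KO against WT (adjusted p = 0.00666) and 1.70 ± 0.262 in T133A against KO (adjusted p = 1.72e-05). T133A against WT gave 0.75 ± 0.239 with an adjusted p of 0.0517, just above the threshold of 0.05, which became 0.0346 without KO replicate 1 and 0.0341 without KO replicate 2. The KO call was lost without KO replicate 2 (log2 fold change -0.67, adjusted p = 0.0966). ARHGEF39 on the opposite strand covers 38.5% of the CA9 exon bases, and without a known strand setting their reads cannot be told apart.

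NDRG1, a stress-responsive gene of the N-myc downstream regulated family, was at 185.4 and 130.2 CPM in T133A, 61.6 and 70.8 CPM in KO, and 114.7 and 117.1 CPM in WT. ERO1A, the oxidase that drives disulfide formation in the endoplasmic reticulum, was at 182.7 and 199.8 CPM in T133A, 94.6 and 98.2 CPM in KO, and 139.5 and 124.4 CPM in WT. For both genes T133A was above WT and KO below it, with no overlap. The log2 fold change of NDRG1 was -0.81 ± 0.132 in KO against WT (adjusted p = 3.05e-05), 0.45 ± 0.129 in T133A against WT (adjusted p = 0.0298) and 1.25 ± 0.132 in T133A against KO (adjusted p = 8.25e-08). For ERO1A it was -0.45 ± 0.105 in KO against WT (adjusted p = 0.00119), 0.54 ± 0.104 in T133A against WT (adjusted p = 0.00124) and 0.99 ± 0.105 in T133A against KO (adjusted p = 8.91e-08). The T133A call of NDRG1 against WT was lost without T133A replicate 1 (log2 fold change 0.18, adjusted p = 0.417), WT replicate 1 (adjusted p = 0.156) or WT replicate 2 (adjusted p = 0.117). ERO1A lost its call in KO without WT replicate 1 (adjusted p = 0.0745). When GC content and length were corrected for, ERO1A was at -0.07 in KO against WT (adjusted p = 0.467), including the 0.15 shift of all genes. With that correction centred it was at -0.19, still called narrowly (adjusted p = 0.045). The call was lost when replicate number was also in the model (adjusted p = 0.0726). Its T133A call against WT was lost without WT replicate 2 (adjusted p = 0.11).

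BNIP3 and BNIP3L encode related receptors that mark mitochondria for removal, and they moved apart in KO. BNIP3 was at 99.1 and 90.5 CPM in T133A, 114.2 and 103.3 CPM in KO, and 79.7 and 77.7 CPM in WT. It rose in KO by 0.47 ± 0.106 against WT on the log2 scale (adjusted p = 0.000998). Its adjusted p in T133A against WT was 0.123, and 0.029 without T133A replicate 2.

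BNIP3L was at 82.2 and 85.6 CPM in T133A, 72.2 and 60.3 CPM in KO, and 87.9 and 75.8 CPM in WT. KO lay below both other groups. Its fall in KO by 0.31 ± 0.116 (adjusted p = 0.0344) was lost without KO replicate 2 (log2 fold change -0.20, adjusted p = 0.259) or WT replicate 1 (log2 fold change -0.19, adjusted p = 0.415). When GC content and length were corrected for, it was at 0.03 (adjusted p = 0.768), including the 0.15 shift of all genes, and with that correction centred at -0.09 (adjusted p = 0.404). T133A over KO was 0.34 ± 0.116 (adjusted p = 0.022), and 0.23 without KO replicate 2. That call was lost with the GC and length correction (0.09, adjusted p = 0.379), a value that holds the -0.15 shift of all genes. Centred, it was kept narrowly (0.21, adjusted p = 0.0447). BNIP3 took 49.4% and 46.1% of the pair's summed FPKM in T133A, 56.1% and 58.1% in KO, and 42.3% and 45.3% in WT, highest in KO.

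ADM, the precursor of the vasodilator peptide adrenomedullin, was at 45.2 and 38 CPM in T133A, 73.6 and 64.6 CPM in KO, and 32.4 and 33.6 CPM in WT. It was the strongest rise in KO among the targets outside glycolysis, with 1.07 ± 0.123 against WT (adjusted p = 2.88e-07) and -0.73 ± 0.122 in T133A against KO (adjusted p = 4.7e-05). Its adjusted p in T133A against WT was 0.0986, and 0.00911 without T133A replicate 2.

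The collagen prolyl hydroxylase subunits P4HA1 and P4HA2 differed in which comparisons were called in the main fit. P4HA2 was at 68.3 and 54.9 CPM in T133A, 53.5 and 49.7 CPM in KO, and 39.5 and 42.6 CPM in WT. Both other groups lay above WT. Its log2 fold change was 0.59 ± 0.123 in T133A against WT (adjusted p = 0.0028), lost without WT replicate 1 (adjusted p = 0.0722). In KO against WT it was 0.33 ± 0.124 (adjusted p = 0.0333), lost when any library of KO or WT was left out (adjusted p = 0.102 and 0.0528 without KO replicates 1 and 2, and 0.239 and 0.0918 without WT replicates 1 and 2). T133A against KO was not called (adjusted p = 0.101), but was without T133A replicate 2 (adjusted p = 0.00793).

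P4HA1 was at 67.7 and 70.3 CPM in T133A, 58.4 and 49.6 CPM in KO, and 58.8 and 55.9 CPM in WT. It was higher in T133A than in KO by 0.35 ± 0.114 (adjusted p = 0.0163), lost without KO replicate 2 (adjusted p = 0.153). The P4HA1 call was also lost with the GC and length correction (0.09, adjusted p = 0.394), a value that holds the -0.15 shift of all genes. Centred, P4HA1 was at 0.21 and called (adjusted p = 0.0445), but not with replicate number also in the model (adjusted p = 0.0577). In T133A against WT, P4HA1 was not called in the main fit (0.27, adjusted p = 0.155). It was called higher there with the correction (0.32, adjusted p = 0.00626, and centred 0.32, adjusted p = 0.00822), the direction of P4HA2. DDIT4, an inhibitor of mTOR signalling, was at 109 and 81.1 CPM in T133A, 118.8 and 120.3 CPM in KO, and 102.1 and 99.6 CPM in WT. Both KO libraries were the high ones. T133A was lower than KO by a log2 fold change of -0.33 ± 0.119 (adjusted p = 0.0309), lost without T133A replicate 2 (adjusted p = 0.356) or KO replicate 2 (adjusted p = 0.0913). KO against WT had an adjusted p of 0.095, and 0.0304 and 0.0136 without T133A replicates 1 and 2. The T133A call of DDIT4 against KO held with the uncentred GC and length correction (-0.31, adjusted p = 0.00225). It was lost with the correction centred (-0.19, adjusted p = 0.0637). DDIT4-AS1, which covers 41.2% of the DDIT4 exon bases on the opposite strand, had 0 counts in all 6 libraries.

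KDM3A, a histone demethylase, was at 63.9 and 68.2 CPM in T133A, 57.7 and 50.4 CPM in KO, and 56.6 and 64.5 CPM in WT. It was called in no comparison of the main fit. There T133A against KO was at 0.29 (adjusted p = 0.0506), and at 0.36 without T133A replicate 1 or without KO replicate 1. Corrected for GC content and length, KDM3A was called higher in KO than in WT (0.21, adjusted p = 0.0417), a value that holds the 0.15 shift of all genes. Centred, it was not called there (0.09, adjusted p = 0.409). ANKRD37, a small HIF target of the ankyrin repeat family, was at 0.347 to 0.83 FPKM over the 6 libraries and was called in no comparison. UFSP2 on the opposite strand covers 35.2% of its exon bases.

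Genes outside the 39 were counted in the same fit, in lists of related genes. Over all genes tested, 5.58% were called higher and 3.97% lower in T133A against WT, 23.6% and 23% in KO against WT, and 20.3% and 19.6% in T133A against KO. Of 30 other hypoxia targets tested, 11 were higher and 2 lower in T133A against WT, 8 higher and 11 lower in KO against WT, and 12 higher and 5 lower in T133A against KO. The share called was 43.3% in T133A against WT, against 9.55% of all genes, 63.3% in KO against WT, against 46.6%, and 56.7% in T133A against KO, against 39.9%. The median log2 fold change of that list was 0.17, -0.15 and 0.22 in the same order, against 0.00, 0.00 and -0.01 for all genes tested. STC2, the secreted stanniocalcin, was at 18.6 and 18.1 CPM in T133A, 101.9 and 100.5 CPM in KO, and 7.07 and 7.47 CPM in WT. It was the gene of that list with the smallest adjusted p in KO against WT (log2 fold change 3.80 ± 0.135, adjusted p = 4.46e-16). Like PFKFB3 and PFKP, STC2 lay highest in KO, lowest in WT and between them in T133A.

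ANGPTL4, a secreted inhibitor of lipoprotein lipase, was at 35.7 and 26.5 CPM in T133A, 24.5 and 17.8 CPM in KO, and 10.3 and 13.4 CPM in WT, with T133A highest. HMOX1, the haem oxygenase, was at 33.5 and 31.4 CPM in T133A, 188.4 and 279.4 CPM in KO, and 41.8 and 46.8 CPM in WT, so the KO libraries were far above the rest. Its change on the log2 scale was 2.40 ± 0.144 in KO against WT (adjusted p = 7.31e-12) and -0.45 ± 0.146 in T133A against WT (adjusted p = 0.055). IGFBP3, which binds insulin-like growth factors, was at 1633 and 1209 CPM in T133A, 383.6 and 375.6 CPM in KO, and 1101 and 1042 CPM in WT. Its fall in KO (log2 fold change -1.50 ± 0.123, adjusted p = 1.18e-09) had the order of groups seen for CA12 and SLC16A3.

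Of 15 other genes of sugar handling tested, 2 were higher and 0 lower in T133A against WT, 3 higher and 4 lower in KO against WT, and 5 higher and 3 lower in T133A against KO. The share called in KO against WT was 46.7%, against 46.6% of all genes. HKDC1, a hexokinase relative, was at 68.2 and 69.2 CPM in T133A, 113.2 and 133.3 CPM in KO, and 49.8 and 56.5 CPM in WT. SLC2A3, the GLUT3 glucose transporter, was at 172.5 and 151.6 CPM in T133A, 80.3 and 82.7 CPM in KO, and 134.9 and 127.2 CPM in WT. HKDC1 thus rose in KO against WT (log2 fold change 1.21 ± 0.114, adjusted p = 1.08e-08) and SLC2A3 fell (log2 fold change -0.69 ± 0.105, adjusted p = 1.47e-05). ENO3, the muscle enolase, also fell in KO (log2 fold change -1.37 ± 0.177, adjusted p = 1.5e-06). BPGM, which makes the bisphosphoglycerate that tunes haemoglobin in red cells, was at 28.7 and 26.8 CPM in T133A, 22.2 and 17.2 CPM in KO, and 20.2 and 18.8 CPM in WT.

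The pentose phosphate pathway branches from glucose phosphate and yields NADPH and ribose. Of its 7 genes 1 was higher and 0 lower in T133A against WT, 4 higher and 1 lower in KO against WT, and 0 higher and 2 lower in T133A against KO. The shares called were 14.3%, 71.4% and 28.6%, against 9.55%, 46.6% and 39.9% of all genes. TKT, the transketolase, was at 1262 and 1039 CPM in T133A, 1652 and 2111 CPM in KO, and 1424 and 1441 CPM in WT. It was highest in KO and lowest in T133A. PGD, a dehydrogenase of the pathway, was lower in KO than in WT (log2 fold change -0.40 ± 0.124, adjusted p = 0.0115), and RPIA, the ribose phosphate isomerase, was higher there (0.62 ± 0.163, adjusted p = 0.0036) and in T133A against WT (0.56 ± 0.164, adjusted p = 0.0309).

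Pyruvate dehydrogenase carries pyruvate into the mitochondrial cycle. Of the 10 genes of the complex and its regulators, 1 was higher and 0 lower in T133A against WT, 2 higher and 2 lower in KO against WT, and 3 higher and 2 lower in T133A against KO. The shares called, 10%, 40% and 50%, stood against 9.55%, 46.6% and 39.9% of all genes. PDK4, a kinase that switches the complex off, was at 202.9 and 232.8 CPM in T133A, 33.6 and 32 CPM in KO, and 224.9 and 209 CPM in WT. Its fall in KO (log2 fold change -2.73 ± 0.114, adjusted p = 8.82e-15) was larger in size than any change among the 39 genes. PDP1, a phosphatase that switches the complex on, was at 46.3 and 44.7 CPM in T133A, 30.4 and 37.7 CPM in KO, and 28.3 and 27.2 CPM in WT, and rose in T133A (0.71 ± 0.129, adjusted p = 0.000638). PDP2, the other phosphatase, was higher in KO than in WT (0.52 ± 0.131, adjusted p = 0.00261), PDHA1, a subunit of the complex, was higher too (0.32 ± 0.104, adjusted p = 0.0141), and PDHB, another subunit, was lower (-0.45 ± 0.111, adjusted p = 0.00206).

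Of 14 tested partners in oxygen sensing, 0 were called in T133A against WT, where OS9, the most abundant of them over the T133A and WT libraries, was at 165.2 and 129.9 CPM in T133A and 158.9 and 173.7 CPM in WT (adjusted p = 0.39). edgeR, DESeq2 and limma-voom each called 0 there, with 2 higher at an unadjusted p under 0.05. In KO against WT 4 were higher and 2 lower, and in T133A against KO 3 were higher and 2 lower. Those are 42.9% and 35.7% of the list, near the 46.6% and 39.9% of all genes. ARNT2, a relative of the HIF partner ARNT, was at 55.1 and 47.6 CPM in T133A, 73 and 79.1 CPM in KO, and 41.3 and 43.9 CPM in WT. Its rise in KO was 0.84 ± 0.116 (adjusted p = 3.85e-06). ELOB, a component of the VHL complex, was also higher in KO than in WT (0.54 ± 0.111, adjusted p = 0.000358), and OS9 was lower (-0.47 ± 0.114, adjusted p = 0.00162). ARNT itself was higher in T133A than in KO (0.40 ± 0.115, adjusted p = 0.00853), and its adjusted p in KO against WT was 0.242.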

How the data were processed

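RNA of 6 A549 libraries was sequenced and mapped with HISAT2 2.0.5 to GRCh38 and counted with featureCounts 1.5.0, per the submitters' processing notes; the annotation release and the strand setting were not given in the sources used here. The deposited files hold a raw read count per gene, as the authors counted it. They also hold the authors' FPKM, that is, counts per kilobase of gene and per library. The library size it implies was between 0.967 and 1.03 times each total. FPKM was used only to compare genes with each other.

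Counts were scaled by TMM and filtered with filterByExpr, and 1 model of all 6 libraries with group as its only term was fitted with edgeR 4.0.16 (robust quasi-likelihood F test, two-sided) in R 4.3.3. Each SE is the absolute log2 fold change divided by the square root of F. Adjusted p-values are Benjamini-Hochberg over 16340 genes, with a threshold of 0.05 and 3 comparisons that share libraries. The biological coefficient of variation was 8.96%. All 39 members are given: those called, and their isoenzyme families, by library, and the rest by range or by library. From each further list up to 3 called genes with the smallest adjusted p are named per comparison, or the most abundant where none was called. Some genes that this rule names are not reported here. The members and lists were chosen with earlier results of these data known. In the files 27 gene symbols had been turned into dates and were restored by gene ID. Exon overlaps were taken from GENCODE 29. The promoter window of 250 bases, the use of the most upstream start site (12 members have several) and the short stretches printed were chosen after values had been seen. The code was tested on simulated data. Alternatives used limma 3.58.1, DESeq2 1.42.0, other scalings and filters, corrections for GC content and length, and single libraries left out.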

Additional observations from a re-analysis of the deposited data

How the results depend on the processing

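With 2 libraries a group, single libraries decide many calls. Under 19 alternatives per comparison, 2214 values of the 39 genes were recomputed: 2010 kept direction and side of the threshold, 80 lost a call, 118 gained one and 6 changed sign with a call in either fit; another 72 changed sign while called in neither and are counted among the 2010. PFKP, PFKFB3 and EPAS1 kept their T133A call against WT in all 19. In KO against WT, GPI, PFKP, PFKFB3, ALDOA, TPI1, GAPDH, PGAM1, ENO1, SLC16A3, EGLN1, CA12, BNIP3, ADM and NDRG1 did so. Leaving out single libraries gave 4 to 19 members higher in T133A against WT, with 456 to 1447 of all genes higher and 307 to 1132 lower, against 912 and 648 with all libraries. In KO against WT it gave 2563 to 4418 of all genes higher, against 3862.

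Correcting for gene length and GC content moved the median of all genes by 0.15 in KO against WT and by -0.15 in T133A against KO, so changes under it are read relative to that shift; centring it was chosen after seeing this. It called 1446 genes higher and 1098 lower in T133A against WT (centred 1404 and 1069), 5796 higher and 3208 lower in KO against WT (centred 4389 and 3904), and 2946 higher and 5571 lower in T133A against KO (centred 3659 and 4043). The members' median in T133A against KO became -0.02 (centred 0.10), against 0.19. In KO against WT, BNIP3L went to 0.03, P4HA1 to 0.24 and KDM3A to 0.21, and LDHA in T133A against KO went to -0.19; centred, these were -0.09, 0.12, 0.09 and -0.07, with no call in any of the 4. HIF1A and ERO1A lost their KO calls when uncentred, with the 0.15 shift in their values. Centred, they kept them narrowly (adjusted p = 0.0472 and 0.045). They lost them when the centred correction was joined with the replicate block (both at -0.19, adjusted p = 0.0664 and 0.0726).

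Replicate numbers did not pair the libraries: the replicate differences correlated at -0.364 between T133A and KO, -0.216 between T133A and WT and 0.11 between KO and WT over 9869 genes. With the replicate block, 11 members were higher and 0 lower in T133A against WT (791 and 628 of all genes), 14 higher and 7 lower in KO against WT, and 14 higher and 10 lower in T133A against KO. With the block and the GC correction, 974 genes were lower in T133A against WT, 5 members were lower in KO against WT, BNIP3L was at 0.03 and P4HA1 at 0.24 there, 5387 genes were lower in T133A against KO, and the members' median there was -0.02. Swapping the T133A numbers in the block, chosen after seeing the data, gave 21 members higher and 1496 of all genes higher and 1334 lower in T133A against WT.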
